A study of Mesocricetus auratus with 14 samples.

Results

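The genes described here are the transcription factor NRF2 (gene Nfe2l2), its repressor Keap1, a set of well-known NRF2 target genes, and the superoxide dismutases Sod1 and Sod2. They were chosen by name, as the rows of the authors' symbol table that carry 1 of 10 listed symbols. Of the 10, 9 were found: Nfe2l2, Keap1, Nqo1, Gclc, Txnrd1, Srxn1, Hmox1, Sod1 and Sod2. Gclm was not analysed here. The 9 genes stand among 22283 genes of the count table, 10023 of which have a symbol, and all 9 passed the low-count filter.

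Liver RNA of Syrian golden hamsters (Mesocricetus auratus) was sequenced in 7 samples from the DC371739 arm, named after a compound for which the labels give a code only, and 7 samples of the control arm. Both groups carry the label of a high-fat diet. For genotype, strain, sex and age of the animals, and for dose, route and duration of treatment, the sources used here give nothing. Nothing in the labels states that the samples are separate animals. The p-values therefore rest on the spread between samples, which may in part be technical. All 10 hepatocyte markers checked, Alb and Apoa1 among them, were detected in these livers. In bulk tissue, fewer cells of a type and less RNA per cell cannot be told apart.

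In resting cells KEAP1 binds NRF2 and hands it to a CUL3 ubiquitin ligase for breakdown. When reactive compounds modify cysteines of KEAP1, NRF2 escapes, enters the nucleus with a small MAF partner and switches on genes that carry an antioxidant response element. In liver these include enzymes that make glutathione, recycle thioredoxin, reduce quinones and break down haem. The BACH1 protein competes for the same DNA elements as a repressor. The superoxide dismutases convert superoxide to hydrogen peroxide, SOD1 in the cytosol and SOD2 in the mitochondrial matrix, and Sod2 is in addition a well-known target of NF-kB.

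3 libraries stood apart from the other 11. DC371739 replicate 7 and control replicates 6 and 7 held 22152239 to 23948628 counts, with 12.6% to 14.4% of them on mitochondrial features. The other 11 held 13672589 to 16710097 counts, with 7.23% to 9.33% mitochondrial. They are called the deeper and the shallower libraries here, and what sets them apart is not given in the labels. With 1 DC371739 and 2 control libraries, the deeper class is too small for a value of its own. Each comparison is therefore given in 3 fits: over all 14 libraries, over the same 14 with library class in the model (the class term), and over the 11 libraries of the shallower class (6 DC371739 and 5 control).

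Across the members, the data show no shared direction. Sod2 was higher and Sod1 lower in DC371739 livers once library class was taken into account, and over the shallower libraries Hmox1 was lower and Txnrd1 higher as well. Nqo1 and Gclc, which are commonly read as reporters of NRF2 activity, had log2 fold changes of opposite sign, and neither passed in any of the 3 edgeR fits. Over all 14 libraries edgeR's quasi-likelihood test called 0 of the 9 members at an adjusted p under 0.05, where 1.85% of all 12166 tested genes were called. At an unadjusted p under 0.05 there were 5 of 9, where 20.4% of all genes lay. DESeq2 called 2 of 9 (6.90% of all genes), Sod2 higher and Sod1 lower, and limma-voom with sample weights called 4 of 9 (22.5% of all genes), Sod2 higher and Gclc, Hmox1 and Sod1 lower. With the class term edgeR called 2 of 9, Sod2 and Sod1, where 12.3% of all genes were called. Over the shallower libraries it called 4 of 9, Sod2 and Txnrd1 higher and Hmox1 and Sod1 lower, where 21.5% of 12249 genes were called. Over all 14 libraries the 2 groups overlapped in CPM for each of the 9 members, where 0.699% of all genes showed no overlap. Log2 fold changes were positive for 3 members and negative for 6 in all 3 fits. The median over the members was -0.10 over all 14 libraries and -0.17 over the shallower ones, beside -0.02 and 0.01 over all genes tested.

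**Figure D1:**
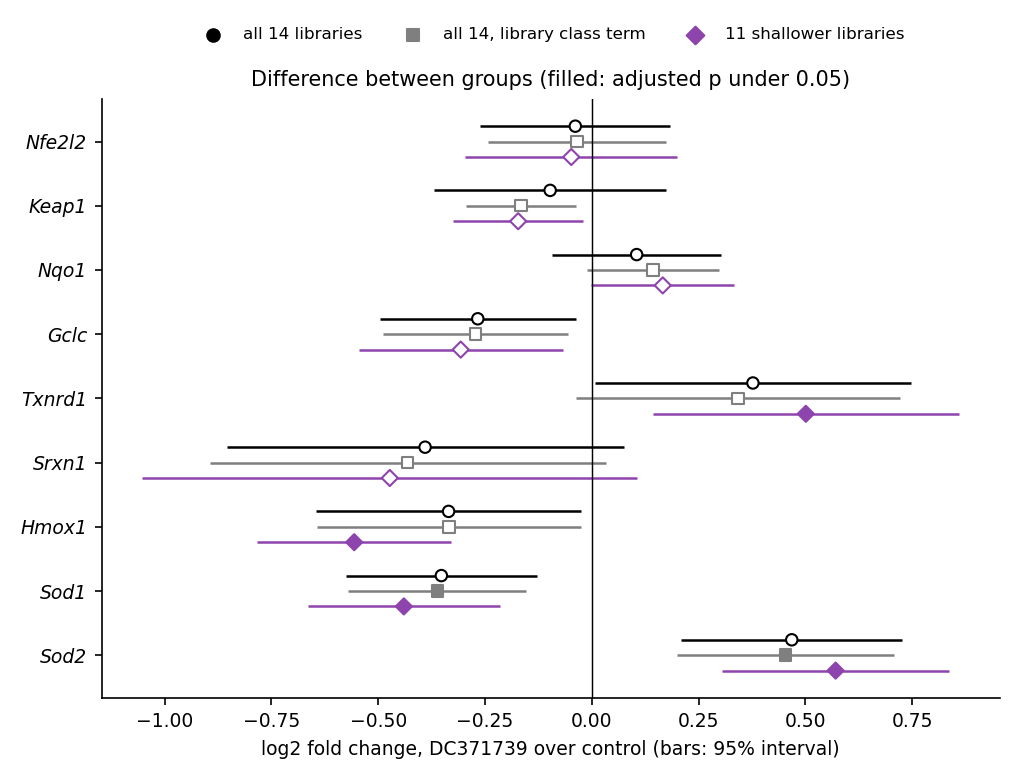
Log2 fold change of each member, DC371739 over control, with its 95% interval, in the 3 fits (all 14 libraries, class term, 11 shallower libraries); filled marks have an adjusted p under 0.05. No mark of the fit over all 14 libraries is filled, Sod1 and Sod2 are filled in both other fits, and Hmox1 and Txnrd1 are filled over the shallower libraries.

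As levels per length, in the authors' FPKM, the members spanned a wide range. Sod1 had a median of 2055 FPKM over the 14 libraries and ranked 34 among the 10023 genes with a symbol. Its lowest value, 1578 FPKM, lay above the highest of any other member. Next came Nqo1 (median 106.6 FPKM) and Sod2 (105.1 FPKM), whose ranges overlapped and each of which was the higher in 7 of 14 libraries. Hmox1 (79.0 FPKM) and Gclc (73.1 FPKM) also overlapped, Hmox1 being higher in 9 of 14. Keap1 had a median of 46.0 FPKM and lay above Nfe2l2, at 30.8 FPKM, in 12 of 14 libraries. Txnrd1 (15.9 FPKM) and Srxn1 (6.86 FPKM) were lowest. Counts behind these levels ran from 137 to 473 per library for Srxn1 and from 13900 to 23593 for Sod1. Counting itself is therefore least precise for Srxn1 and Txnrd1, apart from variation between libraries. The remaining values are CPM, counts relative to the TMM-scaled library total, which compare 1 gene between libraries.

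**Figure D2:**
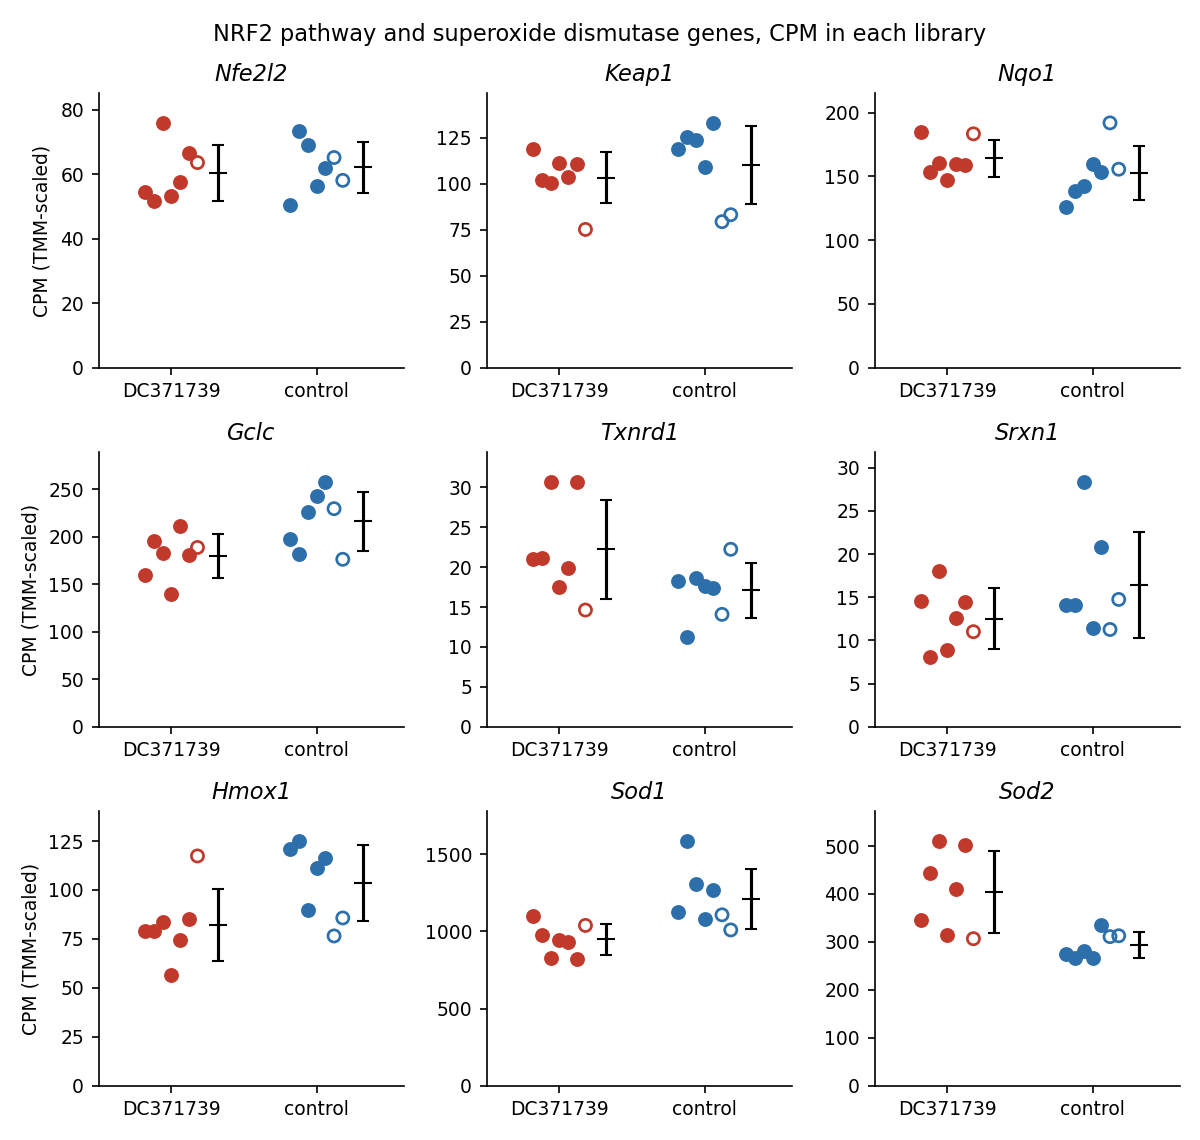
CPM of each member in each library, DC371739 at left and control at right, each panel from 0; filled points are shallower and open points deeper libraries, and the bar gives mean and SD over 7 libraries. Keap1 is low in the open points of both groups, Hmox1 is high in the open DC371739 point, and Sod2 lies above the highest control in 5 of 7 DC371739 libraries.

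The regulators come first. Nfe2l2 (ENSMAUG00000017700), at positions 48052673 to 48076124 of scaffold KB708128.1 in the count table's coordinates (build not given in the sources used here), had a lowest, median and highest level of 51.6, 57.6 and 75.9 CPM in DC371739 livers and of 50.5, 61.8 and 73.5 CPM in control livers. The groups covered nearly the same range. Its log2 fold change was -0.04 with a 95% interval of -0.26 to 0.18 (adjusted p = 0.875), and -0.05 over the shallower libraries (adjusted p = 0.796). The transcript level of NRF2 says nothing of the protein, whose amount is set largely by breakdown.

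Keap1 (ENSMAUG00000007914, KB708210.1, 8954996 to 8963862) stood at 75.2, 103.8 and 118.9 CPM as lowest, median and highest in DC371739 livers, and at 79.4, 119.0 and 133.1 CPM in control livers. The 7 DC371739 values all lay below the control median. Keap1 had a log2 fold change of -0.10 (SE 0.13, adjusted p = 0.715) over all 14 libraries, -0.17 (SE 0.06, adjusted p = 0.0780) with the class term and -0.17 (SE 0.07, adjusted p = 0.0934) over the shallower ones. Keap1 was lower in the deeper libraries by a log2 difference of -0.56 (SE 0.08, adjusted p = 2.21e-05), at 75.2 CPM in DC371739 replicate 7 and 79.4 and 83.2 CPM in control replicates 6 and 7. Between the classes 2 of the 9 members were called, Keap1 lower and Nqo1 higher in the deeper libraries, where 46.4% of all genes were.

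The partners of NRF2 and KEAP1 were read from a list of 14 tested genes. Over all 14 libraries edgeR called 0 of the 14 (5 at an unadjusted p under 0.05) and DESeq2 called none. There limma-voom called Nfe2l1, Bach1, Dpp3 and Nedd8. With the class term edgeR called 2 of the 14, where 12.3% of all genes were called. Bach1 rose there and Nedd8, the ubiquitin-like protein that activates cullin ligases, fell. In the shallower libraries 4 of the 14 were called, where 21.5% of all genes were. Bach1, Dpp3, a peptidase that binds KEAP1, and Nfe2l1, an NRF2 relative, rose and Nedd8 fell. Nothing is read from either count. Bach1 was at 43.6 ± 6.39 CPM in DC371739 and 33.3 ± 10.1 CPM in control livers (SD, n = 7 each). Its log2 fold change was 0.39 over all 14 libraries (SE 0.16, adjusted p = 0.193) and 0.60 over the shallower ones (SE 0.11, adjusted p = 0.00339), and it was higher in the deeper libraries by 0.55 (adjusted p = 0.00324). Cul3, the ligase scaffold, and Sqstm1, the p62 protein that draws KEAP1 into autophagy, stood at -0.02 and -0.01 on the log2 scale. Over the list, the median log2 fold change was -0.00 over all 14 libraries and 0.01 over the shallower ones.

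Glutathione synthesis starts with glutamate-cysteine ligase, whose catalytic subunit is encoded by Gclc (ENSMAUG00000014564, KB708168.1, 10261687 to 10301119, minus strand). Gclc stood at 139.7, 182.9 and 210.6 CPM as lowest, median and highest in DC371739 livers and at 176.1, 226.1 and 257.5 CPM in control livers. The 7 DC371739 values all lay below the control median and 2 of them below the control range. Its log2 fold change was -0.27 (SE 0.11, 95% interval -0.50 to -0.04, adjusted p = 0.178), -0.27 with the class term (adjusted p = 0.0859), and in the shallower set -0.31 (SE 0.11, adjusted p = 0.0617). Gclc did not pass in any of these 3 fits. It did not differ detectably between library classes (-0.04, SE 0.13, adjusted p = 0.793).

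Of 14 further genes of glutathione synthesis and reduction, 0 were called over all 14 libraries by edgeR (1 at an unadjusted p under 0.05) or DESeq2. There limma-voom called Chac2, Glrx5 and Gpx3. With the class term edgeR called 12.3% of all genes, and over the shallower libraries 21.5%. Near or below those shares, 2 of the 14 fell and none rose in both of these fits. These were Glrx5, a mitochondrial glutaredoxin of iron-sulfur cluster assembly (-0.38 over the shallower libraries, SE 0.09, adjusted p = 0.00777), and Cbs, an enzyme of the transsulfuration route from homocysteine to cysteine (-0.38, SE 0.09, adjusted p = 0.0135). Both were lower in the deeper libraries as well, by -0.54 and -0.90. Gsr, which regenerates reduced glutathione, was at -0.02 over all 14 libraries, and Gpx4, a peroxidase of membrane lipids, at -0.15 (adjusted p = 0.290).

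The glutathione S-transferases conjugate glutathione to reactive compounds, and 18 of them were tested. Of the 18, edgeR called 0 over all 14 libraries (4 at an unadjusted p under 0.05), while DESeq2 called 2, Gstm7 and Mgst3, both lower. Limma-voom called Gstm7, Gstcd, Mgst2 and Mgst3 over these libraries. With edgeR's class term, where 12.3% of all genes were called, and over the shallower libraries Gstm7, Mgst2 and Mgst3 fell and none rose. The 3 of 18 called over the shallower libraries stand beside 21.5% of all genes, and the median log2 fold change of the list there was -0.11, beside 0.01 over all genes tested; most of its members did not pass. Mgst3, a microsomal transferase, was at 236.6 ± 30.7 CPM in DC371739 and 292.7 ± 32.05 CPM in control livers (SD, n = 7 each; log2 fold change -0.31, SE 0.10, adjusted p = 0.0944). For the shallower libraries it was -0.32 (adjusted p = 0.0346). Gstm7 was a low gene, at 1.21 ± 0.34 CPM in DC371739 and 2.10 ± 0.44 CPM in control livers, with a log2 fold change of -0.80 over all 14 libraries (adjusted p = 0.0567). Reads of near-identical transferase genes may be split or shared in the authors' counting, so values of single Gst genes are uncertain.

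The thioredoxin system is represented by Txnrd1, the cytosolic thioredoxin reductase, and Srxn1, the sulfiredoxin that repairs overoxidised peroxiredoxins. Txnrd1 (ENSMAUG00000018643, KB708282.1, 4042787 to 4062885, minus strand) stood at 14.6, 21.0 and 30.7 CPM as lowest, median and highest in DC371739 livers and at 11.3, 17.6 and 22.2 CPM in control livers. Of the 7 DC371739 values 5 lay above the control median and 2 above the control range. Among the shallower libraries, 5 of 6 DC371739 values lay above the highest control value of 18.7 CPM. The log2 fold change was 0.38 over all 14 libraries (SE 0.17, 95% interval 0.01 to 0.75, adjusted p = 0.235) and 0.34 with the class term (adjusted p = 0.201). Over the shallower libraries it was 0.50 (SE 0.17, adjusted p = 0.0466), just under the threshold. That call held in 3 of 11 fits that each left out 1 shallower library (without DC371739 replicates 1, 4 or 5) and was lost in the other 8, with adjusted p from 0.0238 to 0.101 over the 11.

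Srxn1 (ENSMAUG00000019700, KB708160.1, 12611594 to 12617038, minus strand) stood at 8.07, 12.6 and 18.04 CPM as lowest, median and highest in DC371739 livers and at 11.3, 14.1 and 28.4 CPM in control livers. The groups overlapped, and 1 control library set the upper end. The log2 fold change was -0.39 with a 95% interval of -0.86 to 0.07 (adjusted p = 0.327), and -0.47 over the shallower libraries (adjusted p = 0.220). The interval is the widest among the members. Txnrd1 and Srxn1 thus had log2 fold changes of opposite sign, and the Srxn1 value did not pass in any of the 3 fits.

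Of 18 further thioredoxin, peroxiredoxin and sulfur repair genes, 0 were called over all 14 libraries by edgeR (2 at an unadjusted p under 0.05), while DESeq2 called Prdx5 lower. Prdx5, a peroxiredoxin of mitochondria and peroxisomes, fell in both other fits. It was at 114.5 ± 9.13 CPM in DC371739 and 139.2 ± 16.3 CPM in control livers (SD, n = 7 each), with a log2 fold change over the shallower libraries of -0.32 (SE 0.09, adjusted p = 0.0197). Prdx1, a familiar NRF2 target, was at -0.08 over all 14 libraries (adjusted p = 0.696) and -0.00 over the shallower ones. Txnrd3, a reductase best known from testis, was at 0.43 in edgeR's fit over all 14 libraries (SE 0.15, adjusted p = 0.114). Limma-voom called both Txnrd3 and Prdx5 over the same libraries, where it called 22.5% of all genes.

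Nqo1 (ENSMAUG00000008644, KB708157.1, 17303 to 31312), the quinone reductase most often used to read out NRF2, stood at 147.0, 159.8 and 184.9 CPM as lowest, median and highest in DC371739 livers and at 126.0, 153.5 and 191.9 CPM in control livers. Of the 7 DC371739 values 6 lay above the control median and none above the control range. Nqo1 had a log2 fold change of 0.11 (SE 0.09, 95% interval -0.09 to 0.30, adjusted p = 0.560) over all 14 libraries. It was 0.17 (SE 0.08, adjusted p = 0.140) over the shallower ones. Nqo1 was higher in the deeper libraries by 0.24 (SE 0.09, adjusted p = 0.0344), and the highest control value belonged to the deeper control replicate 6.

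Among 15 other NRF2-linked detoxification and export genes, 0 were called by edgeR over all 14 libraries (1 at an unadjusted p under 0.05), by DESeq2, or by edgeR with the class term. Over all 14 libraries limma-voom called Aox1, Abcc4 and Ptgr1. Aox1, aldehyde oxidase, rose by 0.35 over the shallower libraries (SE 0.09, adjusted p = 0.0153). Abcc4, an efflux pump of the basolateral membrane, was at 4.39 ± 1.25 CPM in DC371739 and 2.92 ± 0.94 CPM in control livers (SD, n = 7 each; log2 fold change 0.59, adjusted p = 0.140). Abcc2, the canalicular conjugate pump, was at 0.16 (adjusted p = 0.391).

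Hmox1 (ENSMAUG00000000566, KB708202.1, 8609298 to 8616131, minus strand) encodes haem oxygenase 1, which opens the haem ring to biliverdin and which BACH1 represses. In the 7 DC371739 livers it was at 79.0, 78.9, 83.7, 56.5, 74.2, 85.2 and 117.4 CPM for replicates 1 to 7. In the 7 control livers it was at 121.0, 125.1, 89.8, 111.3, 116.4, 76.5 and 85.7 CPM. The highest DC371739 value and the 2 lowest control values were those of the deeper libraries. Among the shallower libraries the groups did not overlap, with at most 85.2 CPM in DC371739 and at least 89.8 CPM in control livers, where 9.34% of all genes showed no overlap and 5.27% lay lower in DC371739 livers.

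The log2 fold change of Hmox1 was -0.34 over all 14 libraries (SE 0.15, 95% interval -0.64 to -0.03, adjusted p = 0.208) and -0.33 with the class term (adjusted p = 0.132). Over the shallower libraries Hmox1 fell by 0.56 on the log2 scale (SE 0.11, 95% interval of the fold change -0.78 to -0.33, adjusted p = 0.00385). This call held in all 11 fits that left out 1 shallower library. Whether the treatment difference itself differed between classes was examined with an interaction term, added after these values were seen. It called 0 of the 9 members, where 0.0164% of all genes were called and 12.5% lay at an unadjusted p under 0.05, among them 2 of the 9 (Hmox1 and Sod2). For Hmox1 the adjusted p was 0.127. Its deeper side rests on 1 DC371739 library, which is assumed to vary like the others, so a difference between the classes is not shown. Without DC371739 replicate 7, Hmox1 passed over the remaining 13 libraries too (adjusted p = 0.0434).

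Haem and iron genes around Hmox1 moved in both directions. Of 17 tested, 1 was called over all 14 libraries, and 5 lay at an unadjusted p under 0.05. The called gene was Blvra, biliverdin reductase A, which takes up the product of haem oxygenase. Blvra rose to 9.50 ± 1.57 CPM in DC371739 livers, against 6.36 ± 0.86 CPM in control livers (SD, n = 7 each; log2 fold change 0.58, SE 0.13, adjusted p = 0.0373), with ranges of 6.40 to 11.2 CPM and 5.09 to 7.39 CPM. It was the 1 gene that edgeR called over all 14 libraries among 118 tested in the 8 pathway lists together, 0.847% of them. The call was lost when any of DC371739 replicates 1, 2, 3, 5 and 6 or control replicates 1, 2, 3, 5 and 6 was left out of that fit, but Blvra passed with the class term (adjusted p = 0.0123) and in the shallower set (0.44, adjusted p = 0.0249).

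Of the 17, 7 were called over the shallower libraries, where 21.5% of all genes were. Blvra, Fech, which inserts iron into the haem ring, and Cpox, an earlier step, rose, Fech by 0.33 (adjusted p = 0.00729) and Cpox by 0.45 (adjusted p = 0.00529). Among those that fell were Blvrb, the other biliverdin reductase, by 0.26 (adjusted p = 0.0217), Ppox, the step before Fech, by 0.40 (adjusted p = 0.0211), and Alad, which acts early in haem synthesis, by 0.29 (adjusted p = 0.0307). Alad was at 143.0 ± 13.4 CPM in DC371739 and 165.9 ± 21.1 CPM in control livers (SD, n = 7 each). Haem synthesis genes were therefore called on both sides. Limma-voom called the same 7 genes of the 17 over all 14 libraries.

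**Figure D3:**
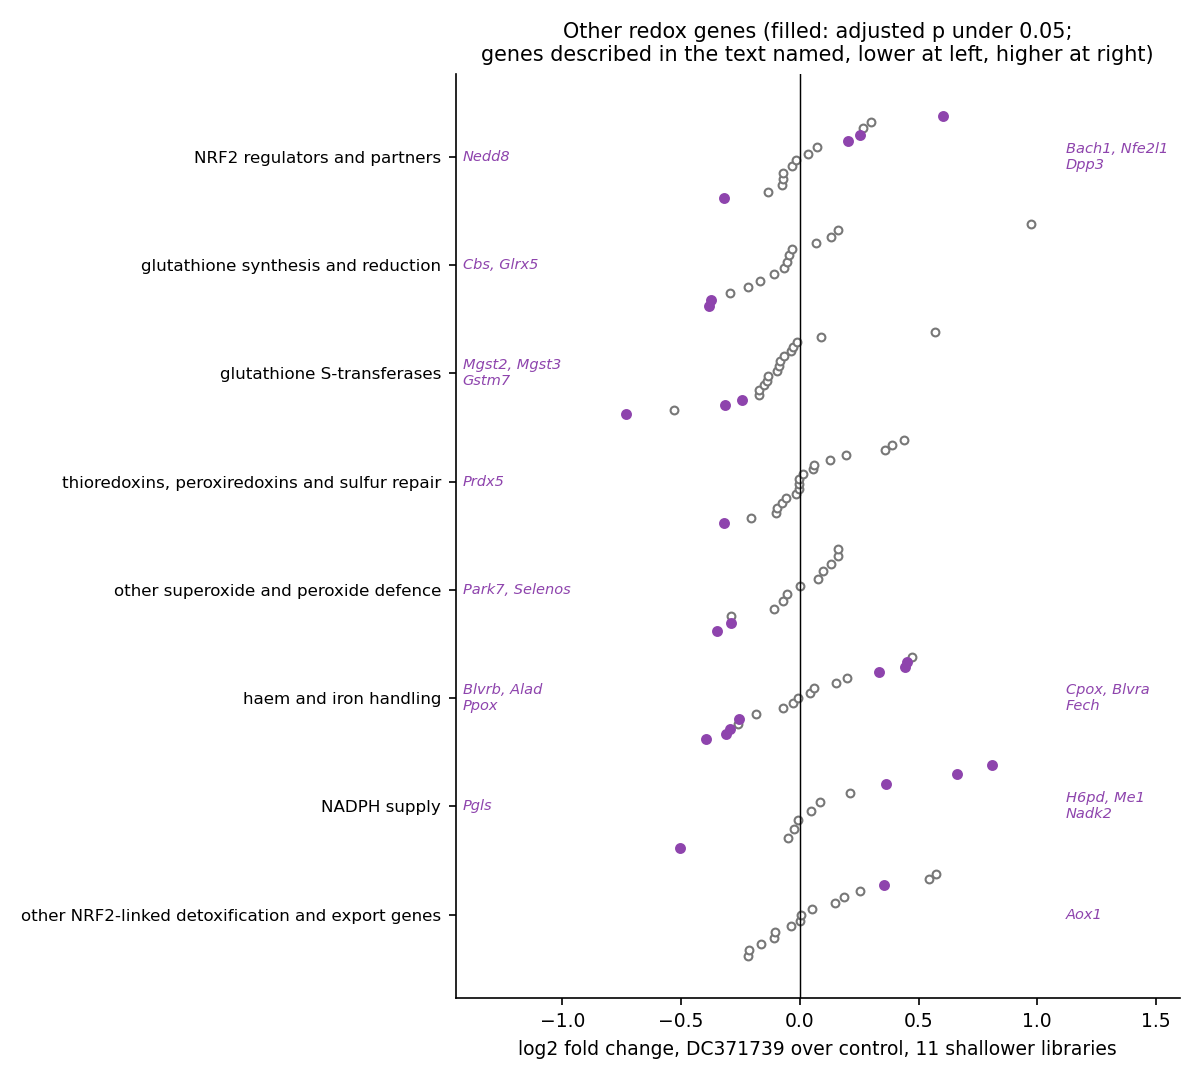
Log2 fold change, DC371739 over control, of each tested gene of 8 pathway lists over the 11 shallower libraries; filled points have an adjusted p under 0.05, and those described in the text are named at the side. Calls fall on both sides in the lists of NRF2 partners, haem and iron genes and NADPH supply, and the 3 called glutathione S-transferases all lie below 0.

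Sod1 (ENSMAUG00000018610, KB708169.1, 7637413 to 7643116, minus strand), the cytosolic copper and zinc superoxide dismutase, was at 1100, 978, 829, 945, 932, 823 and 1039 CPM in DC371739 replicates 1 to 7. In control replicates 1 to 7 it was at 1127, 1587, 1308, 1078, 1267, 1108 and 1010 CPM. The 7 DC371739 values all lay below the control median, and 5 lay below every control value. The log2 fold change was -0.35 over all 14 libraries (SE 0.11, 95% interval -0.58 to -0.13, adjusted p = 0.0818). Sod1 fell by 0.36 with the class term (SE 0.10, adjusted p = 0.0286) and by 0.44 over the shallower libraries (SE 0.11, adjusted p = 0.0112). Leaving out 1 library at a time, the call held in all 11 fits over the shallower libraries and in 8 of 14 with the class term. It was lost there without DC371739 replicates 3, 5 or 6 or control replicates 2, 3 or 5, with adjusted p up to 0.0631.

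Sod2 (ENSMAUG00000021246, KB708131.1, 30358786 to 30369031, minus strand), the mitochondrial manganese enzyme, was at 345.5, 444.6, 510.7, 313.7, 409.7, 502.2 and 306.7 CPM in DC371739 replicates 1 to 7. In control replicates 1 to 7 it was at 275, 266, 281, 267, 335, 311 and 313 CPM. The 7 DC371739 values all lay above the control median of 281 CPM, and 5 lay above every control value. DC371739 replicates 4 and 7 fell inside the control range. The log2 fold change was 0.47 over all 14 libraries (SE 0.12, 95% interval 0.21 to 0.73, adjusted p = 0.0551), which just missed the threshold. Sod2 rose by 0.45 with the class term (SE 0.12, adjusted p = 0.0252) and by 0.57 over the shallower libraries (SE 0.12, adjusted p = 0.00708). Leaving out 1 library, the call held in 11 of 11 fits over the shallower libraries and in 11 of 14 with the class term, where it was lost without control replicates 1, 2 or 3 (adjusted p up to 0.0617). In the authors' deposited table Sod2 had a log2 fold change of 0.47 (adjusted p = 0.0540) and Sod1 one of -0.35 (adjusted p = 0.0841).

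Put side by side per length, Sod2 amounted to 5.10%, 7.59% and 10.6% of the Sod1 FPKM as lowest, median and highest in DC371739 livers. In control livers it amounted to 2.90%, 4.27% and 5.35%. In 6 of 7 DC371739 libraries the share lay above the highest control library, and DC371739 replicate 7 was the exception. This is a description, since both genes were already compared above.

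**Figure D4:**
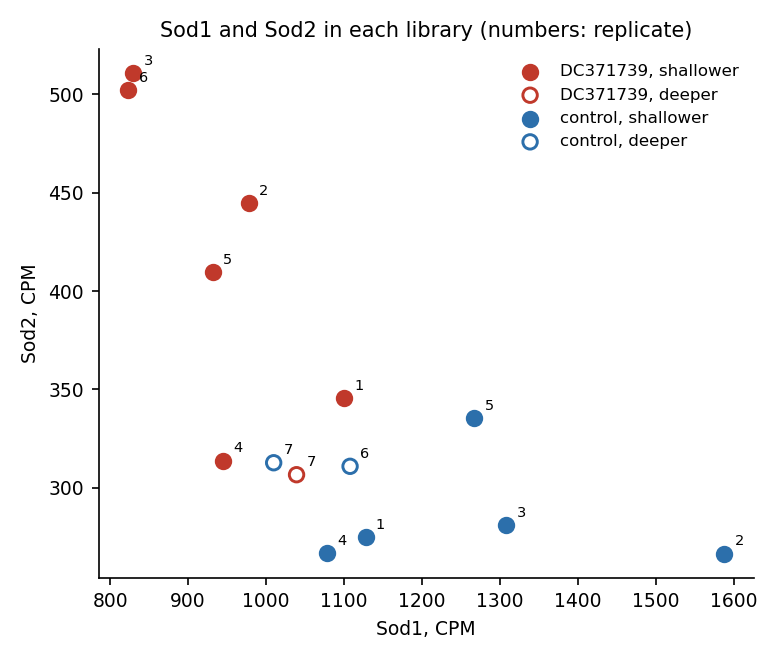
Sod2 CPM (vertical axis) against Sod1 CPM (horizontal axis), 1 point per library numbered by replicate, DC371739 red and control blue, with open points for the deeper libraries; neither axis starts at 0. DC371739 points lie between 823 and 1100 CPM of Sod1 and reach 511 CPM of Sod2, while control points lie between 1010 and 1587 CPM of Sod1 and reach 335 CPM of Sod2.

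Sod2 is not a hepatocyte gene alone. Log2 fold changes of macrophage markers were positive for 10 and negative for 4 over all 14 libraries, and for 11 and 3 in the shallower set. Of 14 macrophage and Kupffer cell markers with a symbol, none was at 0, and 3 were called higher over all 14 libraries, 8 with the class term and 6 in the shallower set, none lower. Of all genes tested, 1.85%, 12.3% and 21.5% were called in these 3 fits, in the same order. Their summed level ran from 940 to 1445 CPM in DC371739 livers and from 816 to 1236 CPM in control livers. Summed stellate cell and fibroblast markers ran from 322 to 519 CPM in DC371739 and from 248 to 369 CPM in control livers, with 1 of 11 called higher with the class term and 2 in the shallower set. Summed endothelial markers ran from 186 to 258 CPM in DC371739 and from 158 to 234 CPM in control livers, with 2 of 9 called higher with the class term (Pecam1 and Cdh5) and 3 over the shallower libraries (Pecam1, Cdh5 and Vwf). Of 3 neutrophil markers Csf3r was called higher in both of these fits, and of 7 lymphocyte markers Prf1 was. None of the markers in these 4 lists was called lower. The stellate and lymphocyte counts lay near or below the shares of all genes. The neutrophil call is 1 gene of 3, and the endothelial calls are 2 and 3 genes of 9. Nothing is read from any of these counts. Of 5 cholangiocyte and 2 erythroid markers 0 were called in any of the 3 edgeR fits, with 0 and 1 at an unadjusted p under 0.05 over all 14 libraries. Summed hepatocyte markers ran from 116135 to 137467 CPM in DC371739 and from 115686 to 151916 CPM in control livers. Of the 10 hepatocyte markers, Hnf4a was called higher with the class term, Apob and Hnf4a in the shallower set, and none lower. In each of the 3 fits 5 of the 10 had a negative log2 fold change. The counts of called hepatocyte markers lay below the shares of all genes, and nothing is read from them. The part of these markers in the values of Sod2 and the other members was not tested.

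Of 12 other genes of superoxide and peroxide defence, 0 were called over all 14 libraries by edgeR (2 at an unadjusted p under 0.05), while DESeq2 called Selenos lower. Selenos, a selenoprotein of the endoplasmic reticulum, fell by 0.35 over the shallower libraries (adjusted p = 0.0129). Park7, a redox-sensitive protein of many tissues, fell by 0.29 there (adjusted p = 0.0301). They were the 2 of the 12 called over the shallower libraries, where 21.5% of all genes were. Limma-voom called both over all 14 libraries. Cat, catalase, which removes the hydrogen peroxide that the dismutases make, was at 3878 ± 552 CPM in DC371739 and 3716 ± 345.5 CPM in control livers (SD, n = 7 each; log2 fold change 0.06, adjusted p = 0.770).

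Glutathione and thioredoxin reductases draw on NADPH. Of 10 genes of NADPH supply, 0 were called over all 14 libraries by edgeR (2 at an unadjusted p under 0.05), while DESeq2 called H6pd higher. H6pd, the hexose-6-phosphate dehydrogenase of the endoplasmic reticulum, was at 113.1 ± 44.2 CPM in DC371739 and 63.5 ± 14.8 CPM in control livers (SD, n = 7 each). It rose by 0.81 over the shallower libraries (SE 0.18, adjusted p = 0.00903). There Me1, malic enzyme, rose by 0.66 (adjusted p = 0.0286) and Nadk2, the mitochondrial NAD kinase, by 0.36 (adjusted p = 0.0224). Pgls, of the pentose phosphate pathway, fell there by 0.51 (adjusted p = 0.0229). These were the 4 of 10 called over the shallower libraries, where 21.5% of all genes were. With the class term H6pd alone was called, 1 of 10, where 12.3% of all genes were. Limma-voom called H6pd, Pgls and Me1 over all 14 libraries.

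Over the 8 lists, 24 of 118 genes were called over the shallower libraries, 10 higher and 14 lower, which is 20.3% beside 21.5% of all genes. With the class term 13 of 118 were called, 4 higher and 9 lower, where 12.3% of all genes were called. Both counts are near the background, and nothing is read from their split by direction. Over all 14 libraries limma-voom called 28 of the 118, 23.7% beside 22.5% of all genes. DESeq2 called 7, 5.93% beside 6.90% of all genes.

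Within groups, members were also compared with each other over the 11 shallower libraries, with group means removed. Of 36 pairs, 0 passed after adjustment, and 3 lay at an unadjusted p under 0.05. Txnrd1 and Sod1 had the smallest p (Pearson's r = -0.75, Spearman's rho = -0.65, permutation p = 0.0118, adjusted p = 0.425), and r was -0.67 without the 2 libraries farthest from the Txnrd1 median. Txnrd1 and Sod2 followed (r = 0.70, rho = 0.73, permutation p = 0.0238, adjusted p = 0.428; r = 0.63 without the 2 libraries).

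The genes whose levels ran most like those of Sod2 and Nqo1 over the same 11 libraries, group means kept, were looked up among 8814 genes. For Sod2 they were Mmp12, a macrophage elastase (r = 0.95), Tlr2, a receptor for bacterial lipoproteins (r = 0.95), Jcad (r = 0.94), Tnip1, which binds the NF-kB inhibitor A20 (r = 0.94), and Gpnmb, a glycoprotein of lipid-laden macrophages (r = 0.94). For Nqo1 they were Bicc1 (r = 0.93), Timp2, an inhibitor of matrix proteases (r = 0.91), Tmem267 (r = 0.88), Cttn, which binds actin (r = 0.87), and Bub3, of the spindle checkpoint (r = 0.86). None of these 10 is a member. Since group means were kept, these values include the difference between the groups.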

How the data were processed

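Per the labels, libraries were made from total liver RNA, and both a TruSeq and a NEBNext kit are named for every sample. The submitters' processing notes name the aligner HISAT2 2.2.1, the counter featureCounts 2.0.0, and edgeR without a version. For genome build, annotation and strand, the sources used here give nothing. The authors deposited whole-number counts per gene, and a second table with FPKM, log2 fold changes, log2 mean CPM, p-values and adjusted p-values of the authors, for genes with a symbol. The deposited FPKM were matched by counts over gene length, scaled with 1 constant for each library (largest relative deviation 1.3e-07).

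Counts were tested with edgeR 4.0.16 (R 4.3.3): quasi-likelihood F-test, TMM scaling, default expression filter with a minimum count of 10, treatment as the 1 model term, Benjamini-Hochberg adjusted p under 0.05 over all tested genes. Standard errors came from the log2 fold change and its F statistic. Library classes were split at the largest gap in total count. DESeq2 1.42.0, limma 3.58.1 (voom with sample weights, and log2(FPKM + 1)), other scalings and filters, a replicate block and leaving out each library were alternatives. Log2 CPM used a prior count of 2, and pair correlations 100000 permutations within groups. The scripts were tested on simulated data. No pair of libraries of the same group (42 pairs) was within sampling noise of each other, and pairs across groups were not checked.

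The members and gene lists were chosen with earlier results of these data known. All members are named. Of each pathway list, genes called over all 14 libraries and those of smallest p, up to 4, could be named; others, such as genes called over the shallower libraries, were chosen after their values were seen. Likeness was Pearson's r of log2 CPM, with the 5 highest genes named for Nqo1 and for Sod2, the member of smallest p. Coordinates are those of the deposited count table. None of the 9 gene spans overlaps another gene there. Not every gene covered by the naming rule is reported here.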

Additional observations from a re-analysis of the deposited data

Results flagged for a closer look

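In 82 groups of 7 libraries, 7 held a value far from the other 6 by Dixon's criterion, where chance gives about 1 in 20. Keap1 was at 75.2 CPM in DC371739 replicate 7, a deeper library, against 101 to 119 CPM in the other DC371739 libraries. Both deeper control libraries were low for Keap1 as well. Chac2, which degrades glutathione, was at 19.6 CPM in DC371739 replicate 7 (others 12.2 to 14.4 CPM) and at 23.4 CPM in control replicate 6 (others 14.8 to 17.2 CPM), both deeper libraries. Txnrd3 was at 3.90 CPM in control replicate 6, against 6.03 to 7.38 CPM in the other controls. Pgls was at 17.8 CPM in DC371739 replicate 1, against 11.9 to 13.5 CPM. Abcc4 was at 4.95 CPM in control replicate 4, against 2.15 to 2.999 CPM, and Abcc1 at 2.94 CPM in control replicate 3, against 1.14 to 1.74 CPM.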

How the results depend on the processing

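Over all 14 libraries 225 genes were called. DESeq2 called 840, limma-voom 2739, the class term 1499, the shallower libraries alone 2635 and the replicate block 8. Leaving out 1 library gave 25 to 1069; the count moved by over 1.5 times without DC371739 replicates 2 (51), 3 (25), 5 (77), 6 (25) and 7 (1069) and control replicates 1 (106), 2 (73), 3 (53), 5 (63) and 7 (542). Called genes were 151 higher and 74 lower, but 223 and 65 with upper-quartile factors and 124 and 36 with library size alone. Called members were 0, against 2 with DESeq2 and with the class term, 4 with limma-voom and over the shallower libraries, 1 with upper-quartile factors (Sod2, adjusted p = 0.0461), and 0 to 3 leaving out 1 library. With the class term, 1499 genes became 7 with the replicate block and 593 to 2741 leaving out 1 library. The 2 members became 3 with DESeq2 (Keap1 as well, adjusted p = 0.0410), 0 with the replicate block and 0 to 3 leaving out 1 library. Over the shallower libraries, 2635 genes became 710 with the replicate block and 1624 to 2913 leaving out 1 library. The 4 members became 5 with DESeq2 (Gclc as well), 2 with the replicate block (Hmox1 and Sod2) and 3 to 5 leaving out 1 library. Correlated pairs stayed at 0 to 0. The causes were not tested.

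Same-numbered libraries of the 2 groups correlated at -0.13 to 0.55, and replicate 7 alone correlated best with its own number. Library class was not removed there, and both replicate 7 libraries are deeper. These values therefore cannot show whether same-numbered samples were paired. Of 243 alternative values of the members' log2 fold changes, 223 kept direction and side of the threshold, 19 newly passed and 1 reversed: Nfe2l2 was at 0.0052 without control replicate 2 (range over the left-out libraries -0.10 to 0.0052). Of 860 for the 32 other named genes, 785 kept both, 63 newly passed, 12 no longer passed and none reversed. Srxn1 and Txnrd1 had the fewest counts of the members, and what part these had in their wide intervals was not tested.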
